A study of Mus musculus with 36 samples.

Results

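Liver RNA of 4 Cd wild type mice was set against that of 4 B6 mice, which are 8 of the 36 arrays, 1 array per mouse, in a study of mouse lines with neural tube defects. The arrays were chosen by their titles. Cd wild type mice had the strain label Lrp6Cd and a wild-type genotype, and were the controls of mice heterozygous for Lrp6Cd, the crooked tail allele of a Wnt co-receptor. B6 mice were C57BL/6J of wild-type genotype, and were the controls of mice heterozygous for Pax3Sp2H, an allele of a neural tube transcription factor, and for Apobtm1Unc, an allele of apolipoprotein B. All were females of 6 to 8 weeks, fasted for 4 to 5 hours, and about 0.5 cubic centimetres of liver was taken from each. Neither group carried a mutation under study, so the comparison is one between the control mice of separate lines. The labels name no inbred background for the Cd line, and no cage, litter or date, so that stock and husbandry cannot be told apart. Other groups of the series are shown for reference only. These are curly tail (ct) and CBA wild type mice, and mice heterozygous for Vangl2Lp (Lp heterozygotes) and Lp wild type mice.

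Wild type controls of separate mutant lines can differ at many loci, because inbred mouse strains differ in sequence across the genome. On an oligonucleotide array such a difference can show as a change of transcript level, or as a change of probe binding where a variant lies under a probe, and a gene read by several probe sets gives several readings of it. C57BL/6J is known for several such loci. It carries a deletion within Nnt, the mitochondrial transhydrogenase that makes NADPH, it has little Ifi202b transcript, and its class I antigen-presenting genes are of one of many known haplotypes.

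In Cd wild type livers, 197 of 13188 genes were higher (1.49%) and 303 were lower (2.3%) than in B6 livers, by limma at a Benjamini-Hochberg adjusted p below 0.05. That is 500 genes or 3.79%, and 1031 of 27022 probe sets (3.82%), 356 higher and 675 lower. Differences are given on the log2(signal + 23) scale as Cd wild type minus B6 ± standard error, and the signal is in linear units of the Affymetrix MAS5 procedure. Of the 500 genes, 285 differed by more than 2-fold on that scale, 58 by more than 4-fold and 17 by more than 8-fold. Groups without overlap were found for 476 of these 500, and for 2284 of all 13188 genes (17.3%). The median difference of all genes was -0.001. With each array centred on its median, 48.3% of the genes called were lower, against 60.6% with the values as deposited. The count moved by more than 1.5 times in 3 other settings: 1880 with array weights, 966 after removal of 2 arrays with high control ratios (CBA replicate 4, ct replicate 3), and 1299 with the 8 arrays alone.

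The labelled tissue was checked against hepatocyte markers. All 9 on the array passed the filter, their differences ran from -0.35 to -0.01, and 0 were called by limma (0 at an unadjusted p below 0.05). Their summed signals of 360807 to 469864 on Cd wild type arrays overlapped those of 422977 to 463013 on B6 arrays. The ratio of 3' to 5' control signal of GAPDH, a check of RNA quality, ran from 0.733 to 0.794 on Cd wild type arrays and from 0.765 to 0.903 on B6 arrays. That of pyruvate carboxylase ran from 4.25 to 8.19 on Cd wild type arrays and from 5.99 to 26.6 on B6 arrays, with B6 replicate 3 highest. The ct replicate 3 array, removed in a setting above, had 26.4, with a GAPDH ratio of 1.72. Without B6 replicate 3, 348 genes were called, within the 345 to 403 seen when any single array was left out. The part of this ratio in the results was not tested otherwise. The labels call the arrays of a group biological replicates and do not say whether the mice were littermates. The p-values rest on the spread between mice within groups, estimated over all 36 arrays and not from these 8 mice alone.

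The largest decrease was that of Pbld1, a phenazine biosynthesis-like domain protein of chromosome 10 that is abundant in B6 liver. Its signal was 11.54, 33.5, 33.7 and 66.11 on the 4 Cd wild type arrays, against 7012, 8321, 9263 and 7389 on the 4 B6 arrays (difference -7.15 ± 0.34, limma adjusted p = 2.46e-17). The Cd wild type signals were at or near background, and the groups did not overlap. Its neighbour Pbld2, a related gene, fell by 1.88, to a mean of 603.7 ± 86.56 in Cd wild type livers, against 2275 ± 263.8 in B6 livers (SD, n = 4 each). Atoh7, a basic helix-loop-helix transcription factor and the next gene in order, read 560.4, 413.1, 204.1 and 395.1 in Cd wild type and 25.78, 31.14, 53.54 and 21.41 in B6 livers (2.85 ± 0.37, adjusted p = 1.98e-06). The 3 neighbours thus moved in both directions.

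Cytochromes P450 of the 2C family moved in opposite directions. Cyp2c37, which oxidises arachidonic acid, read 389.1, 428.8, 638.3 and 463.9 in Cd wild type livers, against 21670, 28940, 25150 and 25310 in B6 livers (-5.67 ± 0.39, adjusted p = 1.07e-12). Cyp2c39, of the same gene cluster on chromosome 19, read 16810, 15780, 14720 and 16370 in Cd wild type livers, against 295.9, 525.2, 488.1 and 625.2 in B6 livers (5.02 ± 0.33, adjusted p = 2.42e-13). Neither gene had overlapping groups. A probe set of 1 Cyp2c gene can also bind transcripts of its close relatives, so these are readings of a probe set and are uncertain as levels of a single gene. Cyp2c39 averaged 10460 ± 6976 in CBA livers and 512.8 ± 78.64 in Lp wild type livers (SD, n = 4 each). Cyp2c37 averaged 22420 ± 12870 in CBA livers and 25920 ± 5841 in Lp wild type livers. CBA means here and below include CBA replicate 4, an array with high control ratios (52.5 for GAPDH). By these group means, a low Cyp2c37 signal together with a high Cyp2c39 signal was seen in neither of these controls.

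Among 38 tested P450 genes of drug and steroid metabolism, 2 rose and 7 fell, which is 23.7% beside the 3.79% of all genes, with a median of 0.048 in the list. Beside the 2 Cyp2c genes, Cyp3a13 had a difference of -1.89 (1545 ± 238 in Cd wild type, against 5771 ± 610.5 in B6 livers) and Cyp2c23 one of -2.08 (2761 in Cd wild type, against 11780 in B6 livers). Differences of Cyp2c50, Cyp39a1, Cyp4f13 and Cyp2f2 were -1.59, -1.3, -1.19 and -0.77. Cyp2c23 and these 4 were named after their values were seen. Cyp3a16, the other member that rose, is also in the list of sex-biased genes. It read 2844, 3790, 5330 and 4514 in Cd wild type livers, against 207.7, 1388, 325.9 and 864.1 in B6 livers (2.84 ± 0.83, adjusted p = 0.0452). Abundant P450 genes that did not pass were Cyp2e1 (-0.14, adjusted p = 0.779), Cyp1a2 (0.48, 0.602) and Cyp2c29 (0.03, 0.976). Without Cd wild type replicate 2 the list had 5 calls, and 15 without the 2 arrays of doubtful RNA or with array weights, and 17 with the 8 arrays alone. Cyp3a16 lost its call in 10 of 21 refits, without any 1 of the Cd wild type arrays or of B6 replicates 1, 3 and 4 among them. After median centring Cyp39a1 and Cyp2f2 lost theirs. Cyp2c50 lost it without Cd wild type replicate 2, Cyp39a1 without that array or B6 replicate 1 or 3, and Cyp2f2 without Cd wild type replicate 1 or 2 or B6 replicate 1.

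Other large increases were of 9130409I23Rik and of Gstp3, a pi-class glutathione S-transferase. 9130409I23Rik read 3840, 3838, 3738 and 3458 in Cd wild type livers, against 140.8, 65.94, 68.1 and 102.4 in B6 livers (5.04 ± 0.42, adjusted p = 1.17e-10). Gstp3 read 32680, 31410, 36470 and 34260 in Cd wild type livers, against 1241, 892.3, 1714 and 1195 in B6 livers (4.75 ± 0.32, adjusted p = 6.66e-13). The Cd wild type level of Gstp3 stood apart from those of CBA (1762 ± 856.7, SD) and Lp wild type livers (1957 ± 1189) too. That of 9130409I23Rik stood near the 4985 ± 1315 of CBA livers. Cap1, an actin-binding protein, Pik3ap1, an adaptor of phosphoinositide 3-kinase, and the peptide transporter Slc15a2 rose by 2.80, 2.69 and 2.42. A second probe set gave 3.12 for Cap1 but -0.45 for Pik3ap1, and those of Slc15a2 gave 0.56 and -0.05. Elobl, Zfp979 and Hddc3 rose by 2.96, 2.50 and 2.41, with B6 means near background for Elobl (34.85) and Zfp979 (5.082). The second probe set of Hddc3 gave -0.51, not called, and the pair differed (adjusted p = 3.07e-07).

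**Figure D1:**
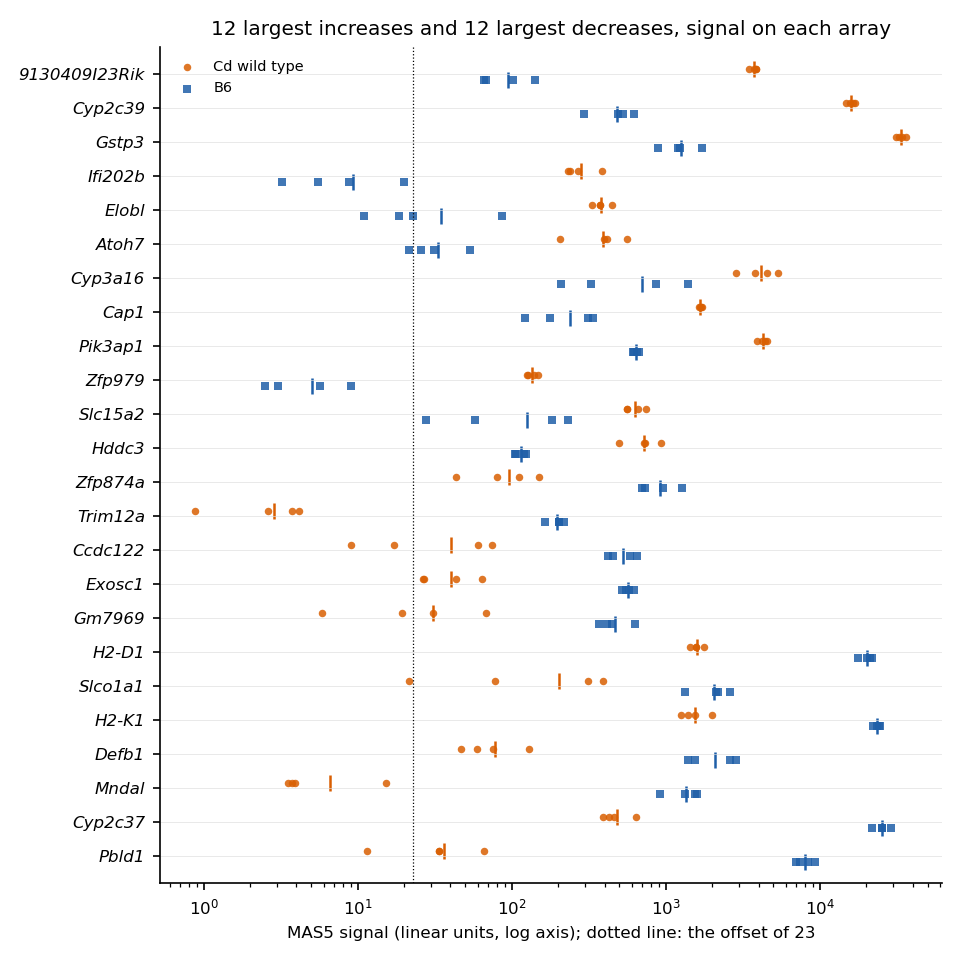
MAS5 signal (linear units on a log axis) of the 12 called genes that rose most and the 12 that fell most without overlap of the groups, 1 point per array (4 Cd wild type, circles, above 4 B6, squares) with a vertical bar at each mean. The 4 Cyp2c39 points of Cd wild type lie at 14720 to 16810, all above those of B6 (295.9 to 625.2), and the order is turned for Cyp2c37.

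Among other large decreases, Defb1, a beta-defensin, read 75.01, 59.35, 128.9 and 46.84 in Cd wild type livers, against 1542, 1384, 2618 and 2841 in B6 livers (-4.39 ± 0.34, adjusted p = 2.87e-11), and its second probe set gave -3.10. Mndal, an interferon-inducible nuclear protein of the Ifi200 cluster, had 6.589 ± 5.722 in Cd wild type, against 1344 ± 307.4 in B6 livers (-5.52 ± 0.38), with -4.71 from its second probe set. Both probe sets of each gene thus fell. Slco1a1, a male-biased uptake transporter of organic anions, fell by 3.68 (201.4 ± 179.7 against 2066 ± 542.2), and its second probe set by 3.09. Gm7969, Ccdc122, Zfp874a and Exosc1, a subunit of the RNA exosome, had differences of -3.28, -3.25, -3.02 and -3.26, and Cd wild type means of all 4 were below 100 (30.83, 40.15, 96.57 and 40.25).

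A further reading came from other mice. Cd heterozygotes, whose controls are Cd wild type, were set against the mean of Pax3 and Apob heterozygotes, whose controls are B6. None of these 12 arrays is among the 8 compared above. Both comparisons use the same estimate of the spread, from all 36 arrays, so their calls are not fully independent. This second comparison carries the 3 mutations as well. It called 1201 of 27022 probe sets (4.44%) and 565 of 13188 genes (4.28%). Without Cd heterozygote replicate 1 or 3 it called 726 probe sets. Of the 500 genes called between Cd wild type and B6, 475 (95%) had the same sign in the second comparison, where 66.7% of all genes did. In all, 271 were called in both with the same sign, which is 54.2% of the first list and 48% of the second, and 0 with the opposite sign by limma. The share was larger for larger differences: 40.5% of the 215 genes that differed by up to 2-fold, 58.1% of the 227 at 2 to 4-fold, 85.4% of the 41 at 4 to 8-fold and 100% of the 17 over 8-fold. Pbld1 gave -6.43 ± 0.29, Cyp2c39 5.20 ± 0.28 and Gstp3 4.41 ± 0.28 in the second comparison. Single genes did not differ between the 2 comparisons at an adjusted p below 0.05 (0 of 13188 by limma, lowest adjusted p = 0.143). At an unadjusted p below 0.05, 501 did, and 113 of these were among the 500 called genes. The 500 were picked by their first difference, which also enters this test. The median gene of the second comparison was -0.014 as deposited and 0.172 after centring of each array, which turned the share of its called probe sets that were lower to 37.9%, against 69.5% as deposited.

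**Figure D2:**
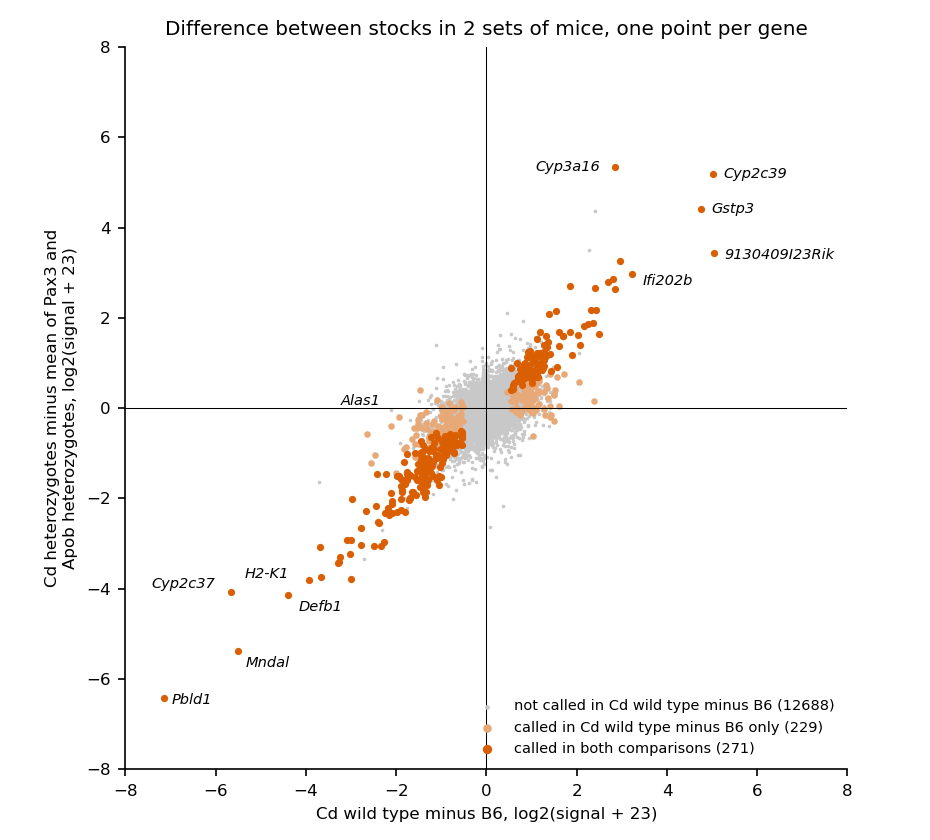
Each point is 1 of 13188 genes. The x axis is Cd wild type minus B6 and the y axis Cd heterozygotes minus the mean of Pax3 and Apob heterozygotes, both on the log2(signal + 23) scale. The 17 genes over 8-fold on the x axis all lie in the same direction on the y axis, while the more abundant Alas1 probe set lies near 0 there (-0.20) and the other one, not drawn, gave -2.39.

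Not every call was repeated. The more abundant probe set of Alas1, the first enzyme of heme synthesis, read 3073, 4801, 3783 and 4834 in Cd wild type livers, against 11670, 20140, 13750 and 18630 in B6 livers (-1.94 ± 0.40, adjusted p = 0.00227). In the second comparison it gave -0.20 ± 0.35 (adjusted p = 0.835), with means of 7027 in Cd heterozygotes and 11130 and 5719 in Pax3 and Apob heterozygotes. The other probe set of Alas1 was called in both comparisons, with -3.69 (adjusted p = 1.48e-05) and -2.39 (adjusted p = 0.000837), so whether the call was repeated depends on the probe set. Tfrc, the transferrin receptor, gave -1.19 and -0.64 (adjusted p = 0.0362 and 0.234), and Lepr, the leptin receptor, -1.48 and 0.39 (0.0181 and 0.611). Of the 229 genes not called again, 105 had the same sign at an unadjusted p below 0.05. Tfrc lost its call in 7 of 21 refits, without Cd wild type replicate 2, 3 or 4 or B6 replicate 3 or 4 among them, and Lepr in 4 of 21, those without Cd wild type or B6 replicate 2 or 4.

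The class I genes of the major histocompatibility complex, which present peptides to T cells, gave probe sets of 1 gene with opposite differences. All 4 tested probe sets of H2-K1 were lower in Cd wild type livers, with differences of -2.30 to -4.46. The one with the highest mean read 1985, 1402, 1551 and 1248 in Cd wild type, against 24490, 22010, 24230 and 23400 in B6 livers (-3.93 ± 0.18, adjusted p = 1.74e-17). Of 8 tested probe sets of H2-D1, 4 were lower, 3 were higher and 1 was not called. The most abundant probe set read 1569, 1763, 1440 and 1560 in Cd wild type livers, against 20310, 17670, 21240 and 21960 in B6 livers (-3.66 ± 0.28). Another read 19680, 18660, 17530 and 16930 in Cd wild type livers, against 563.2, 563, 556.7 and 402.8 in B6 livers (5.08 ± 0.24). So 1 reading of H2-D1 put the gene more than 8-fold lower in Cd wild type and another more than 8-fold higher, and the groups overlapped in neither. The CBA means were 1633 ± 870.9 and 17860 ± 8014 (SD) for these H2-D1 probe sets, near those of Cd wild type livers. The Lp wild type means were 17250 ± 1989 and 665.3 ± 33.81, near those of B6 livers. Both probe sets are of the kind with the suffix _x_at, which can bind related transcripts. Class I genes are near-identical copies, so neither reading is a level of H2-D1 alone.

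Elsewhere in antigen presentation, Tap1, which carries peptides into the endoplasmic reticulum, fell to 275.4 ± 18.51 in Cd wild type, against 616.3 ± 112.7 in B6 livers (-1.08 ± 0.24, adjusted p = 0.00493). It did so in the second comparison too (-1.10, adjusted p = 0.000707). Of 20 tested genes of this list 3 were called (15%, beside 3.79% of all genes): H2-K1 and Tap1, lower, and H2-D1, which is lower by its most abundant probe set and higher by 3 others. B2m, the light chain shared by all class I molecules, gave -0.03 (adjusted p = 0.965), and Psmb8 and Psmb9, subunits of the immunoproteasome, gave 0.02 and -0.01. Fewer cells of a type and less RNA per cell cannot be told apart in whole liver.

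Calls were compared between the probe sets of a gene. Of 5763 genes with several tested probe sets, 528 had a called one, and in 38 of these all tested probe sets were called in 1 direction. In 480 only some were called, and 10 had calls in both directions. A probe set that is not called is not shown to differ from one that is: of the 480 genes, 170 with lower and 57 with higher calls held a probe set that differed from the others by the test below. Itih5, an inter-alpha-trypsin inhibitor heavy chain, fell in all 3 of its probe sets (-2.11, -2.27 and -3.55), and so did Lepr (-1.44 to -1.48). Tfpi, a coagulation inhibitor, rose in all 4 (0.83 to 1.16). The 4 Tfpi probe sets gave 0.323, 0.595, 0.402 and 0.673 in the second comparison, where only the last was called (adjusted p = 0.0242). Where all probe sets agreed, 71.1% of genes were lower (27 of 38), and where some were called, 65.8%.

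A probe set was also tested against the mean of the other probe sets of its gene, array by array, and 574 of 15491 stood apart by limma (3.71%), in 375 genes. Of these, 299 lay below the others of their gene in Cd wild type relative to B6 and 275 above. In a gene with 2 tested probe sets the 2 values are mirror images, so 1 disagreement can count both below and above. The near-even split is therefore partly set by the method. Of the 299, 178 were themselves called lower, and of the 275, 66 were themselves called higher. Rps9, a protein of the small ribosomal subunit, is an example, with 1 probe set that read 418.2, 560.4, 869.7 and 701.5 in Cd wild type livers, against 8596, 11210, 13180 and 10440 in B6 livers (-4.07 ± 0.27). Its other probe sets gave 0.25 and 0.13, neither called. Adi1, an enzyme of methionine salvage, gave -4.37, -1.85 and 0.46 from 3 probe sets, with 286.5 ± 68.87 in Cd wild type, against 6279 ± 610.4 in B6 livers for the first. Exosc1 gave -3.26, against -0.18 and 0.73 from its others. In Ctsl, a lysosomal protease, the abundant probe set (29070 ± 810.9 against 24960 ± 2314) gave 0.22 and the dim one -3.11, and in Prdx2, a peroxiredoxin, they gave 0.65 and -2.86. Lin7c gave -3.95, -1.65, -1.11 and 0.06. D3Ertd751e gave -1.80, 1.44 and 2.12, all called. The largest decreases of Rps9, Exosc1, Ctsl and Prdx2 thus rest on 1 probe set, and a change of level and a variant under the probes cannot be told apart there. The count of probe sets apart was 342 without B6 replicate 2, 368 without B6 replicate 3 and 380 without Cd wild type replicate 1.

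**Figure D3:**
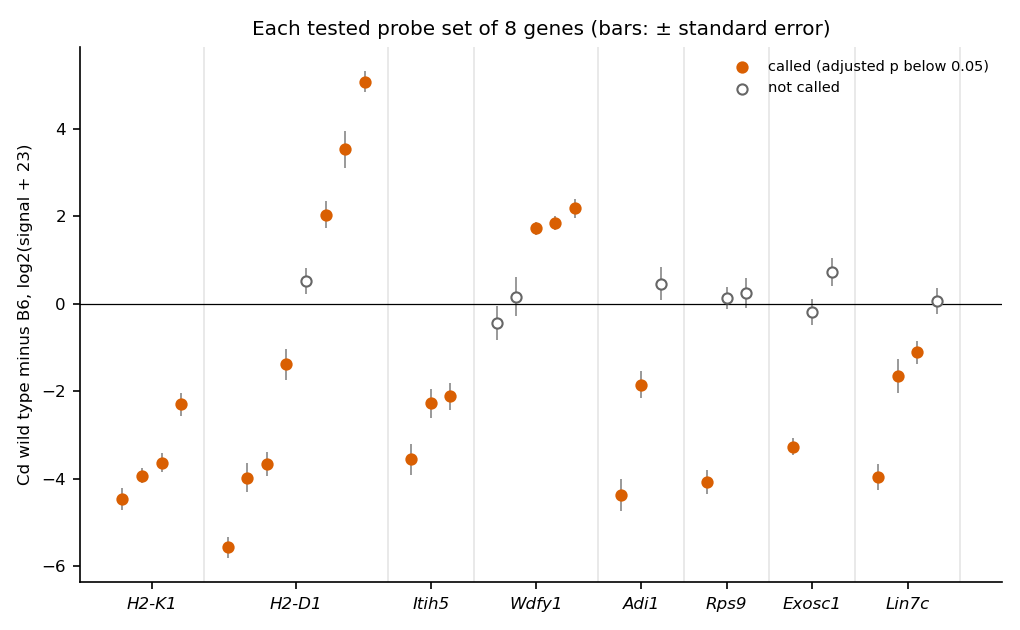
Difference of each tested probe set of 8 genes, Cd wild type minus B6 on the log2(signal + 23) scale, with its standard error. Filled points passed an adjusted p of 0.05 and open points did not. All H2-K1 and Itih5 points lie below 0, H2-D1 points run from -5.57 to 5.08, and Rps9 has 1 point at -4.07 beside 0.25 and 0.13.

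Of 19 tested genes that are reported to vary between C57BL/6J and other stocks, 3 rose and 2 fell (26.3%, beside 3.79% of all genes), and all 5 were called in the second comparison too. The list was chosen with earlier results of these data known, so its share is not an independent reading. Nnt read 10590, 10510, 9314 and 10460 in Cd wild type livers, against 2858, 3597, 3618 and 2602 in B6 livers (1.70 ± 0.22, adjusted p = 3.25e-06), and its second probe set gave 1.60. Pax3 and Apob heterozygotes averaged 3308 and 3982, near B6, and Cd heterozygotes 10900. Ifi202b read 237.7, 230.7, 384.5 and 269.5 in Cd wild type livers, against 20.05, 3.208, 5.503 and 8.722 in B6 livers (3.23 ± 0.45, adjusted p = 8.47e-06). Wdfy1, an endosomal adaptor of Toll-like receptors, rose in 3 of its 5 probe sets (1.73, 1.84 and 2.18). Trim12a and Trim30d, tripartite motif proteins, had differences of -3.08 and -2.67. Lrp6 itself, wild type in both groups, gave -0.58 ± 0.34 (adjusted p = 0.465) and -1.58 (adjusted p = 0.0756) from its probe sets. Alad and Glo1 are in the list and were not called by their most abundant probe sets (0.90 and 0.48, adjusted p = 0.0892 and 0.123), which were called in the second comparison (1.28 and 0.79). Each had another probe set that was called higher, at 1.10 for Alad and 1.27 for Glo1. The list had 3 calls with the filter at the 60th percentile, 2 without probe sets of shared targets, and 8 with array weights or with the 8 arrays alone.

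Genes that were called lay beside each other more often than genes did in general. The RefSeq gene order placed 13119 genes, and of 499 called genes with a next gene, 56 (11.2%) had a called one there, while 3.81% of all placed genes were called. At least 1 of the 2 neighbours was called for 102 (20.4%). That share counts 2 neighbours, so the 3.81% is not its background, and the like share for all placed genes was not computed. There were 46 runs of at least 2 genes and 7 of at least 3. The longest, of 5 genes on chromosome 7, held the tripartite motif genes Trim34a (-2.26), Trim12a (-3.08), Trim12c (0.81), Trim30a (-1.77) and Trim30d (-2.67). A run of 4 on chromosome 3 held Mccc1, an enzyme of leucine breakdown, Acad9, a mitochondrial acyl-CoA dehydrogenase, Zfp267 and the annexin Anxa5 (-1.26, -0.66, -2.17 and -1.42). The other probe set of Acad9 was called higher, at 1.59 (adjusted p = 0.000188). The Ifi200 genes Ifi213, Ifi209 and Ifi207 of chromosome 1 had differences of -1.19, -1.41 and -1.40. On chromosome 17, Tedc2 and Ccnf, a cyclin, had differences of -1.87 and -2.40 beside Abca3, a lipid transporter that rose by 1.37. The runs on chromosomes 2 and 4 held Pcna (0.55), Cds2 (0.95) and Gpcpd1 (-1.06), and Znf41-ps (-1.03), Zfp991 (1.17) and Zfp979 (2.50). Another probe set of Zfp991 was called lower (-1.49, adjusted p = 0.00291). Those of Trim34a, Ifi209, Trim30a and Zfp267 gave 1.53, 0.05, -0.69 and -0.55, not called. Many neighbours are copies of one another, and relatives can share probes, so neighbours are not independent readings. Trim12c, Acad9, Ifi213 and Ifi207 lost their calls in 8 of 21, 9 of 21, 11 of 20 and 13 of 20 refits, and Pcna, Gpcpd1, Zfp991 and Znf41-ps in 11 of 21, 6 of 21, 5 of 21 and 3 of 20. Without any 1 of Cd wild type replicates 2 and 4 and B6 replicates 1, 3 and 4, Trim12c and Acad9 were not called, and the same held for Ifi213. Ifi207 lost its call without any 1 of the 8 arrays.

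Interferon-stimulated genes are switched on by the factor ISGF3 and by IRF proteins at the interferon-stimulated response element. Of 34 tested genes 7 fell and 1 rose in Cd wild type livers (23.5%, beside 3.79% of all genes). Called or not, 32 had values below 0, with a median of -0.52 (all genes -0.001). Irf7, a master regulator of interferon transcription, read 460.8, 344.8, 680.7 and 438.6 in Cd wild type, against 1596, 1694, 2280 and 1715 in B6 livers (-1.90 ± 0.38, adjusted p = 0.00152). Usp18, the protease that removes ISG15 and damps the interferon receptor, read 442.5, 371, 786.1 and 406.3 in Cd wild type livers, against 1201, 1608, 1633 and 2120 in B6 livers (-1.70 ± 0.25, adjusted p = 1.56e-05). The groups overlapped for neither gene, with Cd wild type replicate 3 highest of its group in both.

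The other members that fell, named after their values were seen, were Rsad2 (viperin), Ifi27, Ifit3, Gbp3, a guanylate-binding protein, and the RNA sensor Ifih1, with differences of -1.77, -1.42, -1.19, -1.10 and -0.84. Ifit3 read 341.1, 347.2, 534.2 and 331.1 in Cd wild type livers, against 769.9, 891.4, 1027 and 919.9 in B6 livers. All of the 7 but Ifi27 (-1.07, adjusted p = 0.083) were called in the second comparison, with differences of -0.92 to -1.57. Other antiviral effectors had values below 0 that were not called, among them Oas1a (-1.16, adjusted p = 0.0673), Ifit1 (-1.03, 0.0973) and Oasl2 (-0.89, 0.196). Stat2 and Irf9, subunits of ISGF3, gave -0.13 and -0.29, and Mx1 gave -0.09. Ifi202b, described above, was the member that rose.

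The mean of the list, relative to B6, ran from -0.72 to -0.22 on the Cd wild type arrays and from -0.17 to 0.10 on the B6 arrays. It ran from -0.84 to -0.36 in Cd heterozygotes, against -0.39 to 0.24 in Pax3 and -0.15 to 0.31 in Apob heterozygotes. CBA arrays lay at -0.38 to -0.26 and Lp wild type arrays at -0.48 to 0.31. Of 13 Kupffer cell and macrophage genes, 0 were called by limma (0 at an unadjusted p below 0.05), while 11 had values below 0 with a median of -0.21, and their part in the interferon values was not tested. They had summed signals of 27446 to 36652 on Cd wild type arrays and 30994 to 44360 on B6 arrays. For 12 tested T, B and NK cell genes 0 were called by limma (0 unadjusted), with sums of 1858 to 2376 on Cd wild type and 1696 to 2019 on B6 arrays, and Cd4 and Cd8b1 were below the filter. The list had 5 calls after median centring, or without Cd wild type replicate 1 or 4 or B6 replicate 3, and 4 without probe sets of shared targets. It had 13 without the 2 arrays of doubtful RNA, 14 with array weights and 15 with the 8 arrays alone. Ifi27 and Gbp3 lost their calls in 11 of 20 refits each, without any 1 of the arrays but Cd wild type replicate 3 among them. Rsad2 lost it without Cd wild type replicate 4 or B6 replicate 3, and Ifih1 without Cd wild type replicate 1 or after median centring.

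**Figure D4:**
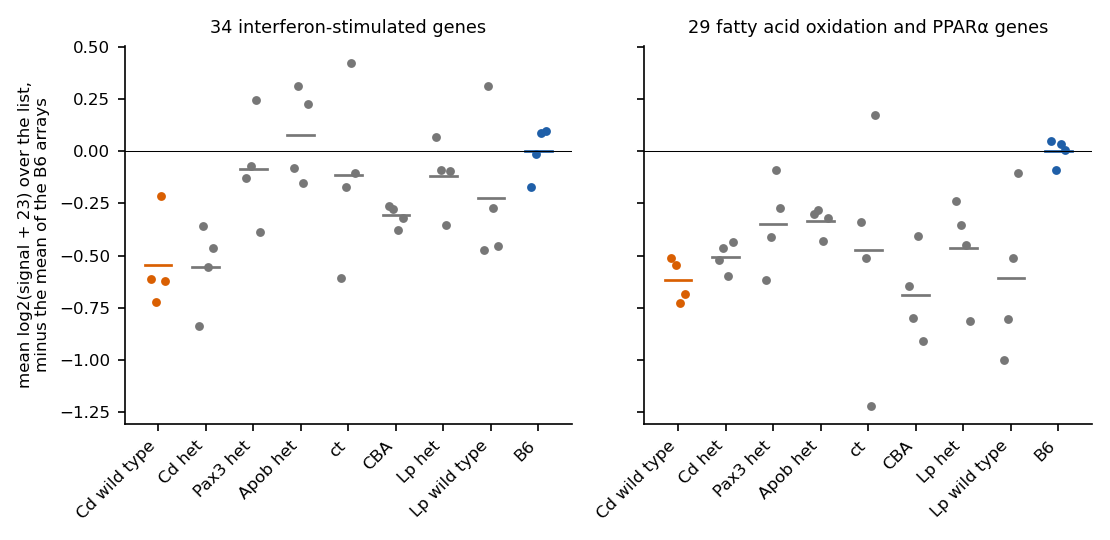
Mean log2(signal + 23) of 34 interferon-stimulated genes (left) and 29 genes of fatty acid oxidation and PPARα (right) on each of the 36 arrays, minus the mean of the B6 arrays, with a line at each group mean. Cd wild type arrays lie at -0.72 to -0.22 (left) and -0.72 to -0.51 (right), below the B6 arrays (-0.17 to 0.10 and -0.09 to 0.05).

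The promoters of 4 of the interferon genes that fell are shown because they hold the response element, searched here as GAAA, any 2 bases and GAAA, on both strands. The sequences are those of the C57BL/6J reference (RefSeq, GRCm38.p6), 250 bases before to 50 bases after the gene start, 5′ to 3′ on the strand of the gene, with matches in capitals. Ifit3 lies at chr19:34583279-34583578 (+), Rsad2 at chr12:26456403-26456702 (-), Gbp3 at chr3:142559794-142560093 (+) and Ifih1 at chr2:62646206-62646505 (-).
Ifit3: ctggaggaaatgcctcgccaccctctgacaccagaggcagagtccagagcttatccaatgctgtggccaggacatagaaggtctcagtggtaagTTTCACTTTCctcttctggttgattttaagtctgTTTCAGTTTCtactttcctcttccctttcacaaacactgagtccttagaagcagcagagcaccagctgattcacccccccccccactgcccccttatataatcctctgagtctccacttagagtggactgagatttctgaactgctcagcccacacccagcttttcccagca
Rsad2: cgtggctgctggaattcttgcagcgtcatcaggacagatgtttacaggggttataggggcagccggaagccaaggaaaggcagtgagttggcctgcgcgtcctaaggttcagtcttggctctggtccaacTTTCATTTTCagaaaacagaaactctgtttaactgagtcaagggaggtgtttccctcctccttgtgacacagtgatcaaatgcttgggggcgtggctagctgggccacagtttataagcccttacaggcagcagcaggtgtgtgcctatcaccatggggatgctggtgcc
Gbp3: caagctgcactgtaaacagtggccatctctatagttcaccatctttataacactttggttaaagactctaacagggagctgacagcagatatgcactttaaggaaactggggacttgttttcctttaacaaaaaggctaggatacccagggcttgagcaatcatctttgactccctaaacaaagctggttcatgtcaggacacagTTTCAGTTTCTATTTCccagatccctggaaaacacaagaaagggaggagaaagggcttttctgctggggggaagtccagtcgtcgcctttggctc
Ifih1: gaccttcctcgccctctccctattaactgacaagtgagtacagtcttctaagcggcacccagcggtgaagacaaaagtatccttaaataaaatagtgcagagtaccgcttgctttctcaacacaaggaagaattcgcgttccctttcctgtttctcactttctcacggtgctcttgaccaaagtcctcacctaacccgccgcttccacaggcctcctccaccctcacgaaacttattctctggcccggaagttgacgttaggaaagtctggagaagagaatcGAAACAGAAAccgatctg
Matches began at bases -156 and -122 of Ifit3, -120 of Rsad2, -45 and -39 of Gbp3, where they overlap, and 33 of Ifih1. The window of Irf7 held none. Of 25 list genes with a promoter in the table, 15 (60%) held the motif in a window, where 1079 of 27025 genes did (3.99%). These are letters of the reference, and the Cd line's own sequence was not analysed here.

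Some genes of fatty acid oxidation and of the nuclear receptor PPARα, which drives the hepatic response to fasting, were lower in Cd wild type livers. Of 29 tested genes 6 fell and 0 rose (20.7%, beside 3.79% of all genes), 26 had values below 0 and the median was -0.30. Cyp4a14, an omega-hydroxylase of fatty acids and a PPARα target, read 7844, 4899, 7806 and 3547 in Cd wild type, against 33520, 29430, 34960 and 29180 in B6 livers (-2.47 ± 0.57, adjusted p = 0.00684). Cyp4a31, of the same family, read 309.5, 346.4, 192.1 and 232.1 in Cd wild type livers, against 2140, 2277, 2162 and 2421 in B6 livers (-2.99 ± 0.38, adjusted p = 1.53e-06). Vnn1, a pantetheinase and PPARα target, read 2695, 3749, 3572 and 2215 in Cd wild type livers, against 14970, 13490, 16500 and 20760 in B6 livers (-2.43 ± 0.30, adjusted p = 6.20e-07). None of the 3 had overlapping groups, and second probe sets gave -2.74 for Cyp4a31 and -2.48 for Vnn1.

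Cpt1a, the gate of mitochondrial fatty acid import, the thioesterase Acot2 and the peroxisome proliferation factor Pex11a had differences of -0.95, -1.07 and -1.21, and these 3 were named after their values were seen. Other probe sets gave -2.07, called, and 0.01 for Cpt1a, 0.23 for Acot2 and -0.67 for Pex11a. Cpt1a read 7295, 5846, 5462 and 5324 in Cd wild type livers, against 11520, 11160, 10570 and 12990 in B6 livers. The core enzymes of mitochondrial beta-oxidation gave values near 0, with Acadm at -0.12, Acadl at -0.04 and Acadvl at -0.15. Fgf21, the fasting hormone, gave -0.98 (adjusted p = 0.308) and Ppara itself -0.84 (0.404), neither called. In the second comparison the median of the list was 0.03, 14 of 29 were below 0, and 2 were called, Cyp4a31 (-2.01) and Vnn1 (-1.46). Cyp4a14 gave -1.03 (adjusted p = 0.274), Cpt1a -0.44 (0.303) and Pex11a -0.35 (0.548) there.

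The list mean relative to B6 ran from -0.72 to -0.51 on Cd wild type arrays, against -0.09 to 0.05 on B6 arrays. It was -0.60 to -0.44 in Cd heterozygotes, against -0.62 to -0.09 in Pax3 and -0.43 to -0.28 in Apob heterozygotes, which the labels give as lines controlled by B6. CBA arrays lay at -0.91 to -0.41, Lp wild type arrays at -1.0 to -0.10 and Lp heterozygotes at -0.81 to -0.24. Of the other 8 groups only ct, at -1.22 to 0.18, had an array above the highest B6 array, so B6 arrays stood at the upper end of the series for this list. The list had 3 calls after median centring or without Cd wild type replicate 3, 11 with array weights and 13 with the 8 arrays alone. Cpt1a lost its call in 7 of 21 refits, without Cd wild type replicate 2, 3 or 4 or B6 replicate 1, 2 or 4 among them, Acot2 in 9 of 21, without any 1 array but B6 replicate 4 among them, and Pex11a after median centring or without Cd wild type replicate 3.

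**Figure D5:**
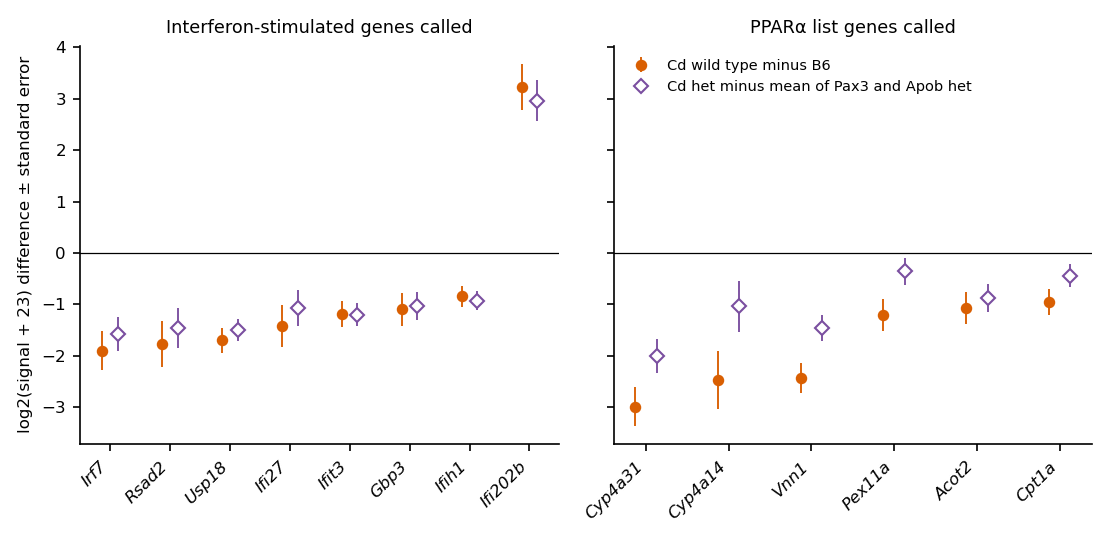
Differences on the log2(signal + 23) scale ± standard error of the called interferon genes (left, 8) and PPARα list genes (right, 6), for Cd wild type minus B6 (circles) and for Cd heterozygotes minus the mean of Pax3 and Apob heterozygotes (diamonds). The diamonds of Irf7 (-1.57) and Usp18 (-1.49) lie close to the circles (-1.90 and -1.70), and those of Cyp4a14 (-1.03) and Pex11a (-0.35) lie nearer to 0 than the circles (-2.47 and -1.21), a difference not called for any gene.

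In 1-carbon metabolism, the folate cycle held 0 called genes of 20 by limma (5 at an unadjusted p below 0.05, median 0.14), among them Gldc (0.77, adjusted p = 0.0604) and Ggh (0.72, 0.0983). Methionine and methyl transfer held 2 of 17, both lower (11.8%, beside 3.79% of all genes). Nnmt, which methylates nicotinamide, read 2263, 802.7, 774.1 and 900.2 in Cd wild type livers, against 4004, 3177, 5420 and 6598 in B6 livers (-2.10 ± 0.42, adjusted p = 0.0016). Cth, which makes cysteine from cystathionine, gave 5728 ± 1472 in Cd wild type, against 10700 ± 2489 in B6 livers (-0.90 ± 0.25, adjusted p = 0.0299). Both were called in the second comparison (-2.05 and -1.01). The central enzymes Mat1a, Bhmt, Gnmt and Cbs gave values of -0.11 to 0.11, not called. Cth lost its call in 7 of 21 refits, without Cd wild type replicate 2, 3 or 4 or B6 replicate 1, 3 or 4 among them.

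Pericentral genes, which Wnt signalling drives around the central vein, held 2 called members of 26 (7.69%, beside 3.79% of all genes), both lower. Slc1a2, a glutamate transporter, read 836.2, 604.8, 596.5 and 682.8 in Cd wild type livers, against 2247, 2989, 4678 and 1746 in B6 livers (-1.98 ± 0.52, adjusted p = 0.0218), and its other probe sets gave -1.02 and -0.11. By its called probe set Slc1a2 averaged 680.1 ± 111.1 in Cd wild type livers (SD). CBA livers had 203.8 ± 228.5 and Lp wild type livers 277.9 ± 130.5. The Cd wild type mean was thus low against B6 but above the means of these 2 controls. The probe set at -0.11 also read higher in Cd wild type livers (614.8) than in CBA (259) and Lp wild type livers (291.4). For the one at -1.02 the order was turned (107.5, against 353.9 and 230). Lgr5, a receptor of R-spondins, gave -0.90 (adjusted p = 0.0461). The classical targets Glul, Axin2 and Tbx3 gave -0.14, 0.25 and -0.14, not called. Slc1a2 lost its call without Cd wild type replicate 2, 3 or 4 or B6 replicate 2 or 3, and Lgr5 in 12 of 21 refits, without any 1 array but B6 replicate 4 among them.

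In lipid synthesis Pnpla3, a lipase of lipid droplets, rose to 631.9, 1620, 610.4 and 1833 in Cd wild type livers, against 284.8, 189.4, 179.7 and 135.3 in B6 livers (2.31 ± 0.47, adjusted p = 0.00189), and it did so in the second comparison (2.16). It was 1 of 2 called genes of 27 (7.41%, beside 3.79% of all genes). Cholesterol synthesis held 0 of 20 by limma (1 at an unadjusted p below 0.05). In the list of sex-biased genes 2 of 27 were called (7.41%, beside the same 3.79%), Cyp3a16 and Slco1a1. Among its other members the female-biased Sult2a2 and Cyp3a44 gave 2.41 and 2.27 (adjusted p = 0.0506 and 0.0597), not called, and were called in the second comparison (4.37 and 3.51). The male-biased Hsd3b5 gave -2.71 (0.12) and -3.36 (0.0112) in the first and second comparison. The list of conjugating enzymes, which does not hold Gstp3, had 0 called genes of 36 by limma (6 unadjusted). Its differences ran from -3.715 to 2.413. The circadian clock had 0 of 18 (3 unadjusted), and the acute phase 0 of 24 (2 unadjusted).

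Of markers of other liver cells, stellate cell and fibroblast genes held 1 called member of 12 (8.33%, beside 3.79% of all genes). It was Pdgfrb, a receptor of platelet-derived growth factor (0.99, adjusted p = 0.0374). The summed signal of the 12 ran from 29346 to 32771 on Cd wild type arrays, against 21826 to 26813 on B6 arrays, and did not overlap. In the second comparison Pdgfrb gave 0.14 (adjusted p = 0.838). Endothelial genes held 2 of 11 (18.2%). Gpr182, a receptor of sinusoidal endothelium, read 1626, 1671, 1509 and 1504 in Cd wild type livers, against 775.7, 662.6, 769.2 and 1043 in B6 livers (0.95 ± 0.22), while Lyve1, a hyaluronan receptor of the same cells, fell by 1.35 (adjusted p = 0.0439). The 2 markers of 1 cell type thus moved in opposite directions. Gpr182 was not called in the second comparison (0.37, adjusted p = 0.319), while Lyve1 was (-1.87, adjusted p = 0.000364). Lyve1 lost its call in 11 of 21 refits, without Cd wild type replicate 2, 3 or 4 or B6 replicate 1, 3 or 4 among them.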

How the data were processed

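Liver RNA was hybridised to Affymetrix arrays, 1 per mouse, from 3 micrograms of total RNA per the labels' protocols. The deposited values are linear signal intensities from MAS5, per the submitters' processing notes, which give no version. Each array has a trimmed mean of 500 (2% left out at each end), as computed from the deposited intensities. Of 45101 probe sets, 64 were controls. GEO's platform table gave 34945 of them 1 symbol, 932 several and 9160 none, and 34741 of the single symbols were found in RefSeq (GRCm38.p6), used for names and gene order.

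Values were taken as log2(signal + 23). Probe sets were tested where the mean passed the 40th percentile (a signal of 61.7). limma 3.58.1 (R 4.3.3; lmFit, eBayes with trend) estimated each group's mean from the 36 arrays together, so that the groups share 1 estimate of the spread. Each gene was read by its most abundant tested probe set. Tests were two-sided, adjusted over all probe sets tested. The number of arrays, 4 in each group, limits the precision.

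Named genes were Lrp6 and Nnt, the 12 largest changes in each direction without overlap, up to 3 called members of lists with 2 or more, genes whose 3 or more probe sets agreed, the 6 probe sets farthest apart in each direction and runs of neighbours. The members, lists and rules were chosen with earlier results of these data known, and the test of the difference between the 2 comparisons was added after seeing them. Alternatives were quantile normalization, median centring, offsets of 8 and 64, other filters, no trend, array weights, fewer arrays, fewer probe sets, a replicate block and leaving out each array. Figures were drawn with matplotlib 3.10.9.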

Additional observations from a re-analysis of the deposited data

Results flagged for a closer look

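In 15 of 184 groups of 4 values (92 probe sets in both groups), 1 array stood apart from the other 3 by more than Dixon's critical value, which chance does in about 1 group in 20. In Cd wild type livers, replicate 1 was high for Mndal (15.17, others 3.518 to 3.943), Nnmt (2263, others 774.1 to 900.2) and Lyve1 (367.8, others 210.2 to 234.7). Replicate 3 was low for Nnt (9314, others 10460 to 10590) and high for Ifit3 (534.2, others 331.1 to 347.2). Replicate 4 was low for Znf41-ps (18.13, others 42.72 to 44.96) and high for Cyp4f13 (734.3, others 602.8 to 611.1). In B6 livers, replicate 1 was high for D3Ertd751e (296.3, others 140.1 to 163.8) and Mccc1 (3769, others 1766 to 1981), and replicate 3 was high for Elobl (86.95, others 10.95 to 22.9) and low for Cyp2c50 (12160, others 18050 to 19230). B6 replicate 4 was high for Lyve1 (1264, others 470.3 to 593.1), Tfpi (678.9, others 361.7 to 388.3) and Ifi213 (246.7, others 160.9 to 165.1), and low for 1 probe set of H2-D1 (402.8, others 556.7 to 563.2). Of these arrays only that for Tfpi reached the other group, whose lowest Cd wild type signal was 659.2.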

How the results depend on the processing

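Counts of called probe sets between Cd wild type and B6 (1031) were 3731 with array weights, 2661 with the 8 arrays alone and 1867 without CBA replicate 4 and ct replicate 3, and 1031, 1012 and 1031 of these were among the original calls. They were 661 without shared targets and 513 with 1 probe set per gene, where fewer probe sets were tested. Genes called (500) came to 1880, 1299 and 966 in the first 3 settings. The second comparison (1201 probe sets) gave 3959, 1817, 2277, 717 and 569 in these 5 settings, and 726 to 1365 when each array was left out. Genes called in both (271) came to 787, 452 and 490, and probe sets apart from the others of their gene (574) to 2294, 1040 and 1301, and to 342 to 511 with an array left out. The cause of these moves was not tested. Left-out arrays gave 696 to 878 probe sets and 345 to 403 genes. Called probe sets that were lower made up 55.4% after median centring, against 65.5% as deposited. Of 74 called probe sets named by rule, 56 lost the call in no refit. The Lin7c probe set at 0.059, not called, turned to -0.031 without B6 replicate 2 and -0.202 without B6 replicate 3, and was 0.259 without B6 replicate 4. Values of the same replicate number deviated from their group means with correlations of 0.029, 0.012, 0.097 and -0.088, so the numbers do not pair the mice, and a replicate block gave 971 probe sets, 938 of them shared. Near background the offset sets the size of a difference.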
